A study of Mus musculus with 3 samples.

Results

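The secretory genes of the differentiated mouse prostate lobes were followed through tumors of the TRAMP model with and without Phf8, through 8 members: Pbsn, Sbp, Sbpl, Msmb, Tgm4, Azgp1, Abo and Spink1. They were taken by name, out of the 46095 gene symbols of the count table, because they encode secretory products of the prostate or, for Abo, an enzyme that glycosylates such products. The rule that lists them uses no measured value, but it was written with earlier results of these data known. The study sequenced RNA of prostate tumors at 37 weeks to ask how loss of the histone demethylase PHF8 affects neuroendocrine prostate cancer. Phf8-KO TRAMP mice gave 2 libraries, Phf8-KO1 and Phf8-KO2, and TRAMP mice with wild-type Phf8 gave 1 library, TRAMP. Each library is RNA pooled from 3 mice, and all mice carry the TRAMP transgene, an SV40 oncoprotein expressed in the prostatic epithelium. In TRAMP mice that transgene is driven by a promoter fragment of rat probasin, the rat counterpart of Pbsn, so the transgene and one of the genes described here belong to the same androgen-dependent program. The labels give neither the lobe nor the type of lesion of any mouse, and nothing in them states that the mice of Phf8-KO1 and Phf8-KO2 are distinct. All p-values here measure only the spread between these libraries, which may in part be technical.

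The mouse prostate consists of paired ventral, lateral, dorsal and anterior lobes, whose luminal cells secrete the fluid that joins that of the seminal vesicles in semen. Androgens maintain the secretory program of these cells, and each lobe makes its own mixture: Sbp and Spink1 are known above all from the ventral lobe, Msmb from the lateral lobe, and Tgm4 from the dorsal and anterior lobes. In bulk tumor tissue, fewer secretory cells and less RNA per cell cannot be told apart, and neither can a different share of the lobes among the dissected tissue.

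The libraries held 26747443 to 31876182 counts, and 18216 genes passed the filter on low counts. All 8 secretory genes were among them. Phf8 itself was at 15.0 and 15.9 CPM in the Phf8-KO1 and Phf8-KO2 pools, against 19.4 CPM in TRAMP, where CPM stands for counts scaled to a common library size with TMM factors. The deleted part of Phf8 is not given, so this level is no check of the genotype. Epithelial RNA was followed through Epcam, Cdh1, Krt8, Krt18, Cldn3, Cldn7 and Krt19. Their summed level was 7285 and 6505 CPM in the Phf8-KO1 and Phf8-KO2 pools, against 4906 CPM in TRAMP. Cldn7 added little, with 16 and 34 counts in the Phf8-KO1 and Phf8-KO2 pools, against 12 in TRAMP. These genes mark epithelium in general, so their level is no check of the prostate label.

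Of the 8 genes, 7 lay below TRAMP in both Phf8-KO pools, where 42.8% of all genes tested did so, and only Tgm4 lay above TRAMP in both pools (40.8% of all genes). Sbp, Sbpl, Azgp1, Abo and Spink1 were more than 2-fold below TRAMP in both pools, which is 5 of 8 against 12.1% of all genes, and Tgm4 was more than 2-fold above it (11.4% of all genes). With each Phf8-KO pool taken alone, these counts were 5 below and 1 above for Phf8-KO1 (16.1% and 16.5% of all genes) and 6 below and 1 above for Phf8-KO2 (19.5% and 16.7% of all genes), the sixth being Msmb. The median log2 fold change of the 8 genes was -1.74, against 0.01 over all genes tested. In edgeR's quasi-likelihood test, 0 of the 8 genes passed at an adjusted p below 0.05 and a fold change above 2, where 0% of all genes passed as higher and 0.0384% as lower. At an unadjusted p below 0.05, Tgm4 was higher (14.9% of all genes) and Sbpl, Azgp1, Abo and Spink1 were lower (12.2% of all genes). DESeq2 called Tgm4 higher (9.42% of the genes it gave an adjusted p) and Azgp1 and Abo lower (4.59%). These tests have 1 residual degree of freedom: their spread is that between Phf8-KO1 and Phf8-KO2, and TRAMP, a single library, was taken to be equally variable.

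**Figure D1:**
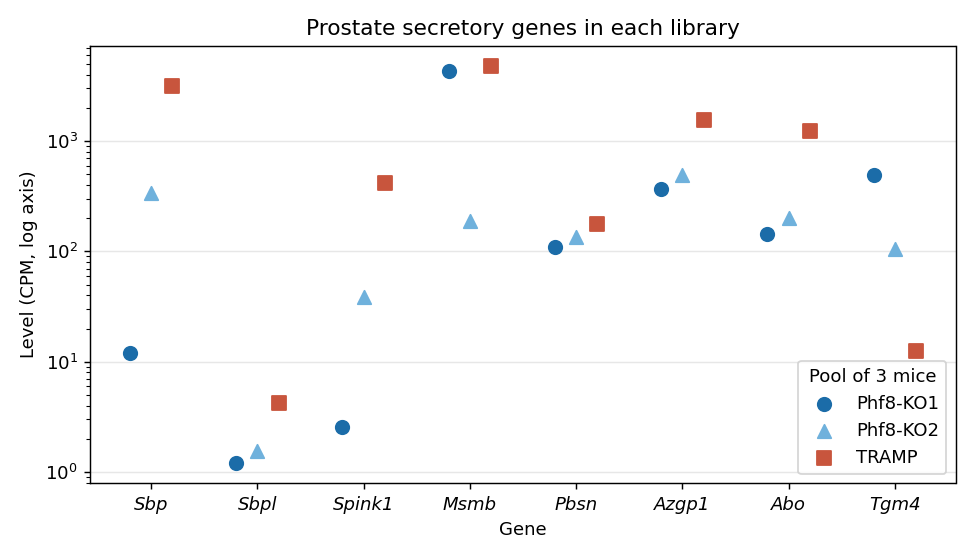
Level of each gene in CPM (log axis) in Phf8-KO1, Phf8-KO2 and TRAMP, from left to right within each gene; every point is 1 library made from 3 mice. TRAMP is the highest of the 3 points for every gene but Tgm4, and the Phf8-KO points lie far apart for Sbp, Spink1, Msmb and Tgm4.

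Sbp encodes the spermine-binding protein, an androgen-dependent polyamine-binding secretion of the ventral lobe. It lies on chromosome 17 of GRCm38 from 23922551 to 23945603 on the plus strand and has up to 4 exons. Sbp was at 12.0 and 340 CPM (320 and 11252 counts) in the Phf8-KO1 and Phf8-KO2 pools, against 3128 CPM (90371 counts) in TRAMP. Both Phf8-KO pools thus lay below TRAMP, but not by similar amounts: the level was 260-fold lower in Phf8-KO1 (95% counting interval 233 to 292) and 9.21-fold lower in Phf8-KO2 (9.03 to 9.39). The Phf8-KO pools themselves differed 28.3-fold (25.3 to 31.7), and with that spread the log2 fold change of -4.15 (SE 1.83) had an adjusted p of 0.25. These intervals cover counting error only, not differences between mice.

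Sbpl, the spermine-binding protein-like gene, lies on the other strand of the same chromosome from 23953085 to 23955273, downstream of Sbp. It was at 1.20 and 1.57 CPM (32 and 52 counts) in the Phf8-KO1 and Phf8-KO2 pools, against 4.26 CPM (123 counts) in TRAMP, with a log2 fold change of -1.62 (SE 0.57, adjusted p = 0.18). Here the Phf8-KO pools were close, and the interval of their ratio, 1.31 for Phf8-KO2 over Phf8-KO1, ran from 0.826 to 2.10. Both genes need care, because the first transcripts of Sbp and Sbpl were identical at 93.4% of 816 aligned bases with a run of 159 bases without a difference. Of the 31-base words in their annotated transcripts, 26.6% of those of Sbp and 48.1% of those of Sbpl occur in the other gene, so reads may have been split between them. The count of Sbpl was 0.462% of that of Sbp in Phf8-KO2, against 0.136% in TRAMP, and with 32 Sbpl to 320 Sbp counts it was higher still in Phf8-KO1, so Sbpl did not follow Sbp in a constant ratio. No other annotated gene of the neighborhood was abundant: Dcpp3, on the far side of Sbp, had 0 counts in both Phf8-KO1 and Phf8-KO2, against 25 in TRAMP, and Prss22, beyond Sbpl, had 43 and 33 counts in the Phf8-KO1 and Phf8-KO2 pools, against 46 in TRAMP.

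Spink1 encodes a small Kazal-type inhibitor of trypsin that is secreted by the pancreas and by male accessory glands. It lies on chromosome 18 from 43728069 to 43737237 on the minus strand and has up to 4 exons. Spink1 was at 2.59 and 39.0 CPM (69 and 1291 counts) in the Phf8-KO1 and Phf8-KO2 pools, against 415 CPM (11977 counts) in TRAMP. The order of the libraries was that of Sbp, at 160-fold below TRAMP in Phf8-KO1 (126 to 206) and 10.6-fold below in Phf8-KO2 (10.04 to 11.28). The Phf8-KO pools differed 15.0-fold (11.8 to 19.5), and the log2 fold change of -4.31 (SE 1.50) had an adjusted p of 0.18. Without Phf8-KO1 the log2 fold changes of Sbp and Spink1 were -3.17 and -3.38, and without Phf8-KO2 they were -8.02 and -7.32.

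Msmb encodes beta-microseminoprotein, one of the most abundant proteins that the prostate adds to semen. It lies on chromosome 14 from 32142023 to 32158327 on the plus strand, has up to 4 exons and a joint exon length of only 589 bases. Msmb was at 4326 and 190 CPM (115255 and 6284 counts) in the Phf8-KO1 and Phf8-KO2 pools, against 4805 CPM (138837 counts) in TRAMP. Phf8-KO1 was therefore near TRAMP, at a 1.11-fold lower level (1.10 to 1.12), whereas Phf8-KO2 was 25.3-fold lower (24.7 to 26.0). The ratio of Phf8-KO1 to Phf8-KO2 was 22.8 (22.2 to 23.4), in the direction opposite to that of Sbp and Spink1. The log2 fold change over both pools was -1.09 (SE 1.72, adjusted p = 0.71), and it was -4.63 without Phf8-KO1 and -0.15 without Phf8-KO2, so 1 pool decided its size.

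Tgm4 encodes the prostate transglutaminase, which cross-links seminal vesicle proteins into the copulatory plug of rodents. It lies on chromosome 9 from 123034741 to 123067558 on the plus strand and has up to 14 exons. Tgm4 was at 495 and 105 CPM (13199 and 3488 counts) in the Phf8-KO1 and Phf8-KO2 pools, against 12.5 CPM (362 counts) in TRAMP. Both Phf8-KO pools exceeded TRAMP, 39.5-fold in Phf8-KO1 (35.6 to 44.0) and 8.40-fold in Phf8-KO2 (7.54 to 9.39), and they differed 4.71-fold from each other (4.53 to 4.89). Its log2 fold change of 4.58 (SE 1.25) was accompanied by an adjusted p of 0.14 (edgeR) or 0.031 (DESeq2). The joint exons of Tgm4 span 4555 bases, and their overlaps with exons of Zdhhc3 and of Gm49323 add up to 1137 bases. A base under both genes is counted for each. The palmitoyltransferase gene Zdhhc3 was at 138 and 148 CPM in the Phf8-KO1 and Phf8-KO2 pools, against 101 CPM in TRAMP. As the strand setting of the counting is not given, reads of these genes in the shared bases cannot be told apart.

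Azgp1 encodes zinc-alpha-2-glycoprotein, a secreted relative of the MHC class I heavy chain that occurs in seminal fluid. It lies on chromosome 5 from 137981521 to 137990233 on the plus strand and has up to 4 exons. Azgp1 was at 366 and 489 CPM (9760 and 16197 counts) in the Phf8-KO1 and Phf8-KO2 pools, against 1566 CPM (45245 counts) in TRAMP. The Phf8-KO pools were close to each other, with a mean of 428 ± 86.6 CPM (SD, n = 2), and the log2 fold change was -1.87 (SE 0.32). The adjusted p was 0.10 with edgeR and 6.2e-07 with DESeq2.

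Abo encodes a glycosyltransferase of the Golgi that adds the terminal sugar of the blood group A and B antigens to secreted and surface glycoproteins. It is not itself a component of prostatic fluid. The gene lies on chromosome 2 from 26842496 to 26864995 on the minus strand and has up to 6 exons. Abo was at 144 and 199 CPM (3843 and 6605 counts) in the Phf8-KO1 and Phf8-KO2 pools, against 1221 CPM (35267 counts) in TRAMP. The Phf8-KO mean of 172 ± 39.0 CPM (SD, n = 2) lay far below TRAMP relative to the spread, with a log2 fold change of -2.83 (SE 0.31). The adjusted p was 0.10 with edgeR and 2.1e-14 with DESeq2. The other enzymes of this antigen pathway had higher values in both Phf8-KO pools: Fut2, the secretor fucosyltransferase that makes the H precursor, was at 213 and 171 CPM in the Phf8-KO1 and Phf8-KO2 pools, against 82.1 CPM in TRAMP (log2 fold change 1.22, SE 0.24, adjusted p = 0.11), and Fut1 had 46 and 39 counts in the Phf8-KO1 and Phf8-KO2 pools, against 4 counts in TRAMP.

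Pbsn encodes probasin, a lipocalin whose promoter is a textbook target of androgens. It lies on chromosome X from 77837898 to 77853500 on the minus strand and has up to 7 exons. Pbsn was at 110 and 134 CPM (2918 and 4444 counts) in the Phf8-KO1 and Phf8-KO2 pools, against 175 CPM (5067 counts) in TRAMP. It had the smallest span of the 8 genes, with a level 1.60-fold lower in Phf8-KO1 (1.53 to 1.68) and 1.31-fold lower in Phf8-KO2 (1.26 to 1.36). The log2 fold change of -0.53 (SE 0.22) had an adjusted p of 0.23.

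In 4 of the 8 genes, Sbp, Msmb, Tgm4 and Spink1, the levels differed more than 4-fold between Phf8-KO1 and Phf8-KO2, where 6.87% of all genes tested did so. Sbp and Spink1 were the lower in Phf8-KO1, and Msmb and Tgm4 were the lower in Phf8-KO2. For Pbsn, Azgp1 and Abo the Phf8-KO pools differed by less than 1.5-fold, although beyond counting error. Each of these ratios rests on 1 library a side and has no replicate check.

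**Figure D2:**
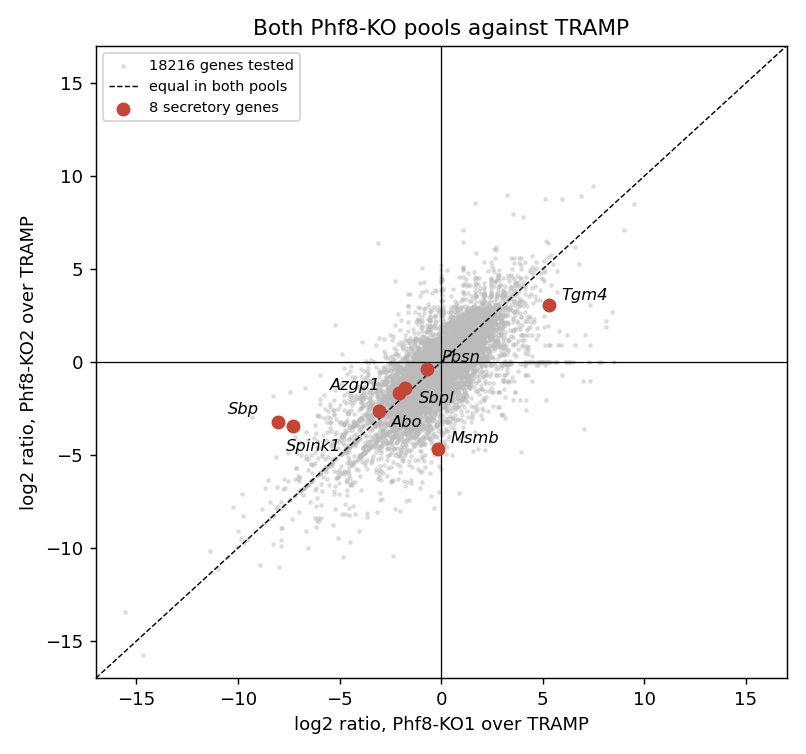
Each point is a gene, with the log2 ratio of Phf8-KO1 over TRAMP on the x axis and of Phf8-KO2 over TRAMP on the y axis; both axes share the TRAMP library, and the dashed line marks equal ratios. Sbp (-8.02 and -3.20) and Spink1 (-7.30 and -3.41) lie above that line, Msmb (-0.15 and -4.66) and Tgm4 (5.30 and 3.07) below it, and Pbsn, Sbpl, Azgp1 and Abo close to it.

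The summed level of the 8 genes was 5457 and 1497 CPM in the Phf8-KO1 and Phf8-KO2 pools, against 11326 CPM in TRAMP. The gap in this sum between the Phf8-KO pools was that of Msmb, since the other 7 genes summed to 1131 and 1308 CPM in the Phf8-KO1 and Phf8-KO2 pools, against 6521 CPM in TRAMP. Within those 7, opposite differences offset each other: Tgm4 was at 495 and 105 CPM and Sbp at 12.0 and 340 CPM in the Phf8-KO1 and Phf8-KO2 pools. The make-up differed between all libraries. Msmb took 79.3% and 12.7% of the sum in the Phf8-KO1 and Phf8-KO2 pools, against 42.4% in TRAMP. Sbp took 0.220% and 22.7% in the Phf8-KO1 and Phf8-KO2 pools, against 27.6% in TRAMP. Azgp1 took 6.71% and 32.6% in the Phf8-KO1 and Phf8-KO2 pools, against 13.8% in TRAMP. Thus Msmb led in Phf8-KO1, Azgp1 in Phf8-KO2, and Msmb with Sbp in TRAMP, while Tgm4 took 9.08% and 7.03% in the Phf8-KO1 and Phf8-KO2 pools, against 0.111% in TRAMP. Set against the summed level of the 7 epithelial genes, the secretory sum was 74.9% and 23.02% of it in the Phf8-KO1 and Phf8-KO2 pools, against 231% in TRAMP. Of these 7 epithelial genes, 6 lay above and 1 below TRAMP in both pools (40.8% and 42.8% of all genes tested). The 1 below was Krt18, at 1305 and 1348 CPM in the Phf8-KO1 and Phf8-KO2 pools, against 1557 CPM in TRAMP. The part of epithelial content in the secretory sums was not tested.

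**Figure D3:**
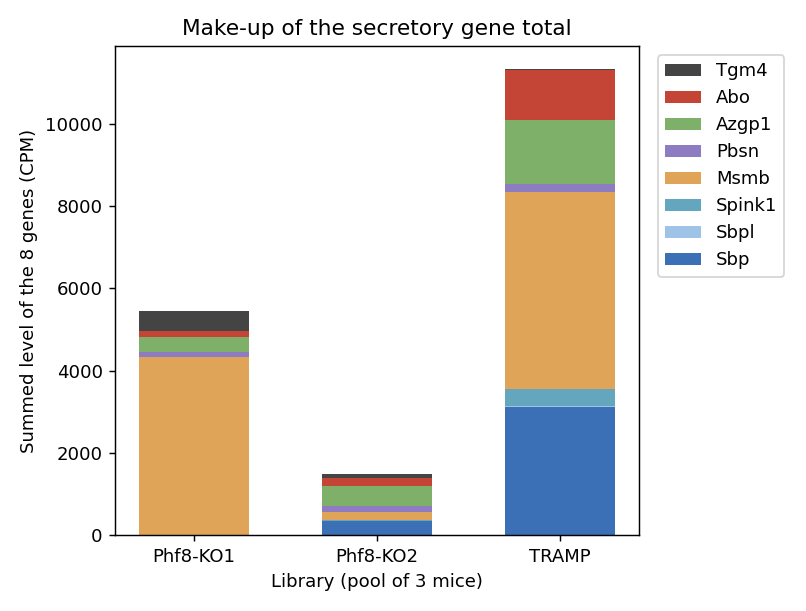
Stacked bars of the CPM of the 8 genes in Phf8-KO1, Phf8-KO2 and TRAMP, each bar being 1 library. The bars reach 5457, 1497 and 11326 CPM; Msmb fills most of the Phf8-KO1 bar, the Sbp segment is visible in the Phf8-KO2 and TRAMP bars, and the Tgm4 segment only in the Phf8-KO bars.

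Per kilobase of exon, Msmb had the highest level of the 8 genes in every library, at 7344 and 322 CPM per kilobase in the Phf8-KO1 and Phf8-KO2 pools, against 8158 in TRAMP. In Phf8-KO1 it was followed by Azgp1 (228), Pbsn (121), Tgm4 (109), Abo (75.1), Sbp (8.16), Spink1 (3.55) and Sbpl (1.36). In Phf8-KO2 the order after Msmb was Azgp1 (304), Sbp (231), Pbsn (149), Abo (104), Spink1 (53.4), Tgm4 (23.1) and Sbpl (1.78). In TRAMP it was Sbp (2126), Azgp1 (973), Abo (636), Spink1 (569), Pbsn (194), Sbpl (4.82) and Tgm4 (2.75). Tgm4 was thus the lowest of the 8 in TRAMP and stood among the middle genes in Phf8-KO1, and Sbp moved between the second place in TRAMP and the sixth in Phf8-KO1. From Phf8-KO1 to Phf8-KO2, Sbp moved from place 6 to place 3 and Tgm4 from place 4 to place 7. Msmb and Azgp1 stayed at the top, nearly level in Phf8-KO2, and Sbpl at the bottom.

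The patterns over the 3 libraries were also compared as distances between centered log2 levels, a description over only 3 points that share the TRAMP library. Among the 8 genes the closest pairs were Sbpl with Azgp1 (distance 0.23), Sbp with Spink1 (0.69) and Azgp1 with Abo (0.78), and the farthest pair was Sbp with Tgm4 (9.43). Of 9642 named genes with a mean of at least 10 CPM, the one nearest to Sbp was Spink1, followed by Scgb2b7, a secretoglobin, at 0.263 and 24.9 CPM in the Phf8-KO1 and Phf8-KO2 pools, against 190 CPM in TRAMP, and Nxpe4, at 1.80 and 13.6 CPM in the Phf8-KO1 and Phf8-KO2 pools, against 187 CPM in TRAMP. The genes nearest to Spink1 were Sbp, Nxpe4 and the retinoic acid-binding protein gene Crabp1. Those nearest to Msmb were the matrix protein gene Dpt (52.0 and 2.14 CPM in the Phf8-KO1 and Phf8-KO2 pools, against 52.2 CPM in TRAMP), the complement gene C3 and the serpin gene Serpinb11. Those nearest to Tgm4 were the hedgehog ligand gene Ihh (31.0 and 13.0 CPM in the Phf8-KO1 and Phf8-KO2 pools, against 2.08 CPM in TRAMP), the collagen gene Col1a1 and Cyp2s1. Abo lay nearest to Slc5a9, Apod and Mx1, Azgp1 to Zkscan16, Slc5a3 and Zc3h12c, Sbpl to Ifit3, P2rx6 and Ifit1, and Pbsn to Pdp1, Stx16 and Scamp1.

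Promoter windows of 300 bases (250 before and 50 after an annotated start, RefSeq, GRCm38.p6) were at hand for Pbsn, Sbp, Sbpl, Tgm4 and Azgp1, and 4 are shown because they set the near-identical Sbp and Sbpl beside the androgen target Pbsn and the one gene with higher levels in Phf8-KO, Tgm4. The windows run 5′ to 3′ on the gene's strand, and capitals mark the androgen response half-site TGTTCT, on either strand, and the TATA box TATAAA. They lie at chrX:77853451-77853750 on the minus strand (Pbsn), chr17:23941668-23941967 on the plus strand (Sbp, the third of its 3 windows), chr17:23955224-23955523 on the minus strand (Sbpl) and chr9:123034491-123034790 on the plus strand (Tgm4).
Pbsn: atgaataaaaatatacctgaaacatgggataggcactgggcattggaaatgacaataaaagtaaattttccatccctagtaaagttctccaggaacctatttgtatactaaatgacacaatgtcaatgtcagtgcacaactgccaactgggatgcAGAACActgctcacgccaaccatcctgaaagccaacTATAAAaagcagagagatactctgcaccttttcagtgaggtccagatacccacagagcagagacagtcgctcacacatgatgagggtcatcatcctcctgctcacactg
Sbp: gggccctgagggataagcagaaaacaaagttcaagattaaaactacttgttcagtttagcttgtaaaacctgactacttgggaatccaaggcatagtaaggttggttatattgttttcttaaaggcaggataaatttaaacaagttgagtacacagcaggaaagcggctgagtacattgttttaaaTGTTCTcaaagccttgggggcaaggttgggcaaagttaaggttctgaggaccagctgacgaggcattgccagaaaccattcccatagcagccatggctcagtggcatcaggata
Sbpl: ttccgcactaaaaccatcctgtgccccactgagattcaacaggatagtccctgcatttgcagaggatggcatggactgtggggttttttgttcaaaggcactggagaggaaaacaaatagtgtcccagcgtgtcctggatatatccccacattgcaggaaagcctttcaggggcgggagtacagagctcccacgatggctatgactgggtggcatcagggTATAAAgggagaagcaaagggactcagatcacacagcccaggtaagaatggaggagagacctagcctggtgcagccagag
Tgm4: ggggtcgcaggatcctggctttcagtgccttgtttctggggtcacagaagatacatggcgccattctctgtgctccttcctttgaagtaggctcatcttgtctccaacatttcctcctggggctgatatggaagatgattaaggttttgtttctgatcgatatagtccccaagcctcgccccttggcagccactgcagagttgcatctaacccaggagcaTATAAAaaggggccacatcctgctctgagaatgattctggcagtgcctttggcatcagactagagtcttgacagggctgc
The half-site was found on the opposite strand at position -95 from the start of Pbsn, on the gene's strand at position -64 from the third start of Sbp, and at position 15 after the start of Azgp1. It occurs in 19.0% of all 32851 windows of the same length, and TATAAA, found in the Pbsn, Sbpl and Tgm4 windows, in 13.6%. The full palindrome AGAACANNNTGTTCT (3 windows, 0.00913%) and the forkhead motif TGTTTAC (3.65%) were found in none of the windows of these genes. The window of Sbpl shared no run longer than 11 bases with any of the 3 windows of Sbp, in contrast to their transcripts. Such matches are a description of the letters and were not tested for binding.

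Other genes of the secretory tissue were described from lists chosen with earlier results of these data known. Among 15 other luminal secretory genes, 0 passed edgeR's test, 1 was higher and 5 were lower at an unadjusted p below 0.05 (14.9% and 12.2% of all genes tested). DESeq2 called 2 higher and 4 lower (9.42% and 4.59% of the genes it gave an adjusted p), and the median log2 fold change was -0.50. The most abundant of them, 9530002B09Rik, was at 573 and 799 CPM in the Phf8-KO1 and Phf8-KO2 pools, against 19570 CPM in TRAMP (log2 fold change -4.83, SE 0.60, adjusted p = 0.10). Clu, the secreted chaperone clusterin, had the higher level in Phf8-KO, at 6517 and 6196 CPM in the Phf8-KO1 and Phf8-KO2 pools, against 2318 CPM in TRAMP (log2 fold change 1.46, SE 0.53, adjusted p = 0.19). Pigr, the epithelial immunoglobulin receptor, was at 2910 and 5479 CPM in the Phf8-KO1 and Phf8-KO2 pools, against 3742 CPM in TRAMP, and Mmp7, a matrix metalloproteinase of glandular epithelium, at 2954 and 1878 CPM in the Phf8-KO1 and Phf8-KO2 pools, against 3768 CPM in TRAMP. Of these 15 genes, 4 lay above and 7 below TRAMP in both Phf8-KO pools (40.8% and 42.8% of all genes tested).

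Of 8 genes described here from the androgen axis and luminal regulators, 7 lay above and 0 below TRAMP in both Phf8-KO pools (40.8% and 42.8% of all genes tested). Of the 8, 0 passed edgeR's test, and an unadjusted p below 0.05 was reached by 3 as higher and 0 as lower (14.9% and 12.2% of all genes tested). DESeq2 called 3 higher and 0 lower (9.42% and 4.59% of the genes it gave an adjusted p). The list is not complete, so these counts do not describe the axis as a whole. The pioneer factor gene Foxa1 was at 406 and 464 CPM in the Phf8-KO1 and Phf8-KO2 pools, against 267 CPM in TRAMP (log2 fold change 0.70, SE 0.25, adjusted p = 0.18). Tmprss2, an androgen-regulated serine protease gene, was at 189 and 286 CPM in the Phf8-KO1 and Phf8-KO2 pools, against 162 CPM in TRAMP, and the homeobox gene Hoxb13 at 174 and 229 CPM in the Phf8-KO1 and Phf8-KO2 pools, against 151 CPM in TRAMP.

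Relatives of Tgm4 and Spink1 showed whether a whole gene family had the same pattern. Of 5 transglutaminase genes tested, Tgm4, Tgm2 and Tgm3 lay more than 2-fold above TRAMP in both Phf8-KO pools (11.4% of all genes). Tgm1 and Tgm5 lay more than 2-fold below TRAMP in both pools (12.1% of all genes). Tgm2, the ubiquitous tissue enzyme, was at 125 and 136 CPM in the Phf8-KO1 and Phf8-KO2 pools, against 48.2 CPM in TRAMP, and Tgm3 at 6.87 and 6.34 CPM in the Phf8-KO1 and Phf8-KO2 pools, against 0.173 CPM (5 counts) in TRAMP. Of the 5, 0 passed edgeR's test, and an unadjusted p below 0.05 was reached by 3 as higher and 1 as lower (14.9% and 12.2% of all genes tested). DESeq2 called 3 higher and 1 lower (9.42% and 4.59% of the genes it gave an adjusted p). Among the Kazal inhibitors, Spink5 was at 21.2 and 836 CPM in the Phf8-KO1 and Phf8-KO2 pools, against 620 CPM in TRAMP, Spink8 at 49.9 and 8.99 CPM in the Phf8-KO1 and Phf8-KO2 pools, against 77.7 CPM in TRAMP, and Spink2 at 5.55 and 8.90 CPM in the Phf8-KO1 and Phf8-KO2 pools, against 0.692 CPM in TRAMP. Spink5 thus shared with Spink1 the low level in Phf8-KO1 but not the low level in Phf8-KO2.

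Markers of other cell types and glands moved with the libraries. Over all genes tested, 40.8% lay above and 42.8% below TRAMP in both Phf8-KO pools. The 10 seminal vesicle genes summed to 1472 and 2175 CPM in the Phf8-KO1 and Phf8-KO2 pools, against 129 CPM in TRAMP, and 9 of 9 tested lay above TRAMP in both pools, with Pax2 at 0 to 2 counts in every library. The 7 skeletal muscle genes summed to 68.9 and 4.80 CPM in the Phf8-KO1 and Phf8-KO2 pools, against 1386 CPM in TRAMP, and 7 of 7 lay below TRAMP in both pools. The 5 adipocyte genes summed to 18.8 and 30.8 CPM in the Phf8-KO1 and Phf8-KO2 pools, against 632 CPM in TRAMP, and 5 of 5 lay below TRAMP in both pools, with Lep at 0 and 1 counts in the Phf8-KO1 and Phf8-KO2 pools. The 5 smooth muscle genes separated the Phf8-KO pools, at 4876 and 357 CPM in the Phf8-KO1 and Phf8-KO2 pools, against 666 CPM in TRAMP, which is the order in which Msmb and Tgm4 also differed between those pools. The 7 proximal luminal genes summed to 1944 and 2685 CPM in the Phf8-KO1 and Phf8-KO2 pools, against 930 CPM in TRAMP, with 6 of 7 above TRAMP in both pools. The part of these tissues in the levels of the 8 secretory genes was not tested.

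**Figure D4:**
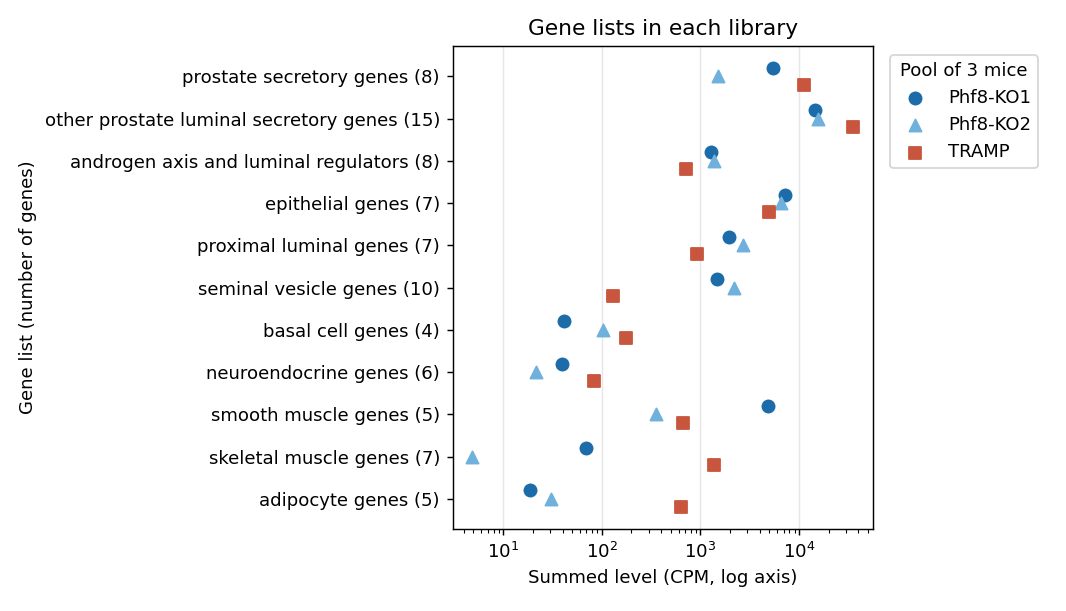
Summed CPM (log axis) of each gene list in Phf8-KO1, Phf8-KO2 and TRAMP, from top to bottom within a list; every point is 1 library. The seminal vesicle genes (1472 and 2175 against 129 CPM) lie to the right of TRAMP in the Phf8-KO pools, the skeletal muscle genes (68.9 and 4.80 against 1386 CPM) and adipocyte genes to the left, and the smooth muscle genes are high in Phf8-KO1 alone.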

How the data were processed

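RNA was sequenced from prostate tumors of mice, as 2 pools of Phf8-KO TRAMP mice and 1 pool of TRAMP mice. The authors mapped filtered reads with HISAT2 to GRCm38 and used HTSeq for gene counts; the deposited table holds these raw counts by gene symbol. Tool versions, annotation release and strand setting are not given in the sources used here, so reads of overlapping or near-identical genes may be shared. Of 46095 symbols, 90.0% matched RefSeq GRCm38.p6, which gave coordinates and promoter windows. Exons and transcripts came from GENCODE, and transcripts were aligned with Biopython 1.88.

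Counts were fitted in R 4.3.3 with edgeR 4.0.16 (quasi-likelihood test, TMM, filterByExpr by group, Benjamini-Hochberg adjustment over 18216 genes). A call needs an adjusted p below 0.05 and a fold change above 2. The SE is the log2 fold change over the square root of F. Levels are CPM on TMM library sizes (factors 0.997 and 1.04 for Phf8-KO1 and Phf8-KO2, against 0.965 for TRAMP). Counting intervals are exact (95%), and 3 counts correspond to 0.0905 to 0.113 CPM. The alternatives were other scalings (RLE, upper quartile, library size, 7 epithelial genes), other filters, DESeq2 1.42.0 (the tool the study used), limma-voom (limma 3.58.1), edgeR's likelihood ratio test and its quasi-likelihood fit with legacy=FALSE, and each Phf8-KO pool left out. The counts of genes past 2-fold in each pool alone were added after seeing the data. The test was tried on simulated counts set to a smaller spread than was fitted here, so that trial does not show how it performs on these libraries.

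The 8 genes, the 14 companion lists and the tests were chosen with earlier results of these data known. Named genes are the 8 members, Phf8, up to 4 genes of a companion list by mean CPM with markers of other cell types, and the 3 genes nearest to each member (log2 CPM with a prior count of 1, centered, Euclidean distance, mean of at least 10 CPM, predicted genes left out). Neighbors of Sbp and genes overlapping Tgm4 are named for their position, and Fut1, Tgm1, Pax2 and Lep to complete a list. Some genes of the androgen axis are not reported here, and that list was shortened after its values were seen.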

Additional observations from a re-analysis of the deposited data

How the results depend on the processing

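All 96 values of the 8 genes under 12 alternatives kept their direction, and 14 of them passed the call: Abo and Azgp1 under 4 alternatives each, Tgm4 under 3, Spink1 under 2, Sbp under 1 and Pbsn, Sbpl and Msmb under none. Of the 8 genes, no filter on low counts called 1 higher and 4 lower, DESeq2 1 and 2, the likelihood ratio test 1 and 3, and scaling to epithelial genes 0 and 2; the rest called none. Over all genes, the quasi-likelihood test called 0 higher and 7 lower, against 1 and 19 with library size scaling, 49 and 351 with scaling to epithelial genes, 1430 and 856 without a filter, 1533 and 747 with DESeq2, 1096 and 980 with the likelihood ratio test, and 0 lower with a mean CPM of at least 1 and with limma-voom. The cause of these differences was not tested. The median log2 fold change of the 8 genes, -1.74, was -1.90 with upper quartile scaling, -2.22 with scaling to epithelial genes and -2.11 with limma-voom, where the median of all genes was -0.14, -0.48 and -0.03. Leaving out 1 Phf8-KO pool gave medians from -2.12 to -1.96, and leaves 1 library a group, so calls have no value there. No paired analysis was possible because TRAMP has 1 library, so that the groups share fewer than 2 replicate numbers. Depth limits Sbpl most, with 32 to 123 counts, and Spink1 in Phf8-KO1, with 69 counts.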

Other observations

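Secretory genes outside the 8 also took separate courses, and those named here were picked after their values were seen. 5430419D17Rik was at 41.4 and 291 CPM in the Phf8-KO1 and Phf8-KO2 pools, against 3065 CPM in TRAMP, which is the order of Sbp and Spink1. Pip, the prolactin-induced protein gene, had 0 counts in Phf8-KO1 and in Phf8-KO2, against 1400 counts in TRAMP. Apof, an apolipoprotein gene, was at 250 and 192 CPM in the Phf8-KO1 and Phf8-KO2 pools, against 1187 CPM in TRAMP, with the Phf8-KO pools as close together as for Azgp1 and Abo. Defb50, a beta-defensin gene, was at 1329 and 476 CPM in the Phf8-KO1 and Phf8-KO2 pools, against 1906 CPM in TRAMP, so that Phf8-KO2 was the lowest library, as for Msmb. Other genes of the same list had the higher levels in Phf8-KO: 9530003J23Rik was at 7.24 and 10.9 CPM in the Phf8-KO1 and Phf8-KO2 pools, against 0.658 CPM in TRAMP, and the kallikrein gene Klk1b26 had 9 and 40 counts in the Phf8-KO1 and Phf8-KO2 pools, against 1 count in TRAMP. Klk1, another kallikrein gene of that list, went the other way, with 1 and 20 counts in the Phf8-KO1 and Phf8-KO2 pools, against 299 counts in TRAMP. The adjusted p of Klk1b26 was 0.21 with edgeR and 0.20 with DESeq2, and that of Klk1 was 0.14 with edgeR and 0.0023 with DESeq2.

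The androgen-induced co-chaperone gene Fkbp5 was at 17.5 and 2.96 CPM in the Phf8-KO1 and Phf8-KO2 pools, against 7.03 CPM in TRAMP, and so lay on both sides of TRAMP. The luminal regulator Gata2 was at 260 and 206 CPM in the Phf8-KO1 and Phf8-KO2 pools, against 55.1 CPM in TRAMP. The proximal luminal gene Psca was at 369 and 949 CPM in the Phf8-KO1 and Phf8-KO2 pools, against 148 CPM in TRAMP.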
